A study of Mus musculus with 6 samples.

Results

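The calpain system is described here in the mouse uterus by 10 genes: the calpains *Capn1*, *Capn2*, *Capn5*, *Capn6*, *Capn7*, *Capn8*, *Capn10* and *Capn15*, the calpain small subunit *Capns1* and the calpain inhibitor *Cast*. The genes were taken by symbol from the 56748 genes of the deposited tables. *Capn5* was selected on its measured log2 fold change between the groups compared below and the others as its relatives, so the differences of all 10 genes are a description. Where a gene is said to be past a threshold, this locates it in the fit across all genes and supports nothing about it, since the choice of the genes used the same contrast. Of the 10 genes, 9 were among the 16605 that passed the filter on low counts, and *Capn8* did not pass. RNA was sequenced from the whole uterus of 3 control females and of 3 with an epithelial deletion (*Gp130* ecKO), taken on day 4 of pregnancy at 1600 h, before embryos attach. All females were sexually mature and on a C57BL/6 background (C57BL/6J in the methods of the study). *Gp130* ecKO females carried a floxed *Gp130* allele on both chromosomes together with *Ltf*-iCre, a recombinase placed in the lactotransferrin gene, which is active in the uterine epithelium of adult females and is also used by some immune cells. The labels call the controls WT, and the methods of the study describe controls as floxed females without iCre or wildtype females. They were mated with wildtype males, and the comparison asks how the pre-implantation uterus differs when epithelial cells lack this receptor subunit for leukemia inhibitory factor. Values of a group are given in the order of replicates 1, 2 and 3.

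Calpains are cysteine proteases of the cytosol that cut proteins at a few sites and thereby alter their activity, where the proteasome would degrade them. The classical calpains need calcium, work as a pair of a catalytic and a small subunit, and are held back by calpastatin. The non-classical calpains, among them calpain 5, lack the domain that binds the small subunit. Known substrates include proteins that tie the actin cytoskeleton to adhesion sites and junctions.

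In each *Gp130* ecKO uterus the RNA of *Capn5* and *Capn1* was higher than in every control uterus, whereas *Capn2*, *Capns1*, *Cast*, *Capn6*, *Capn7* and *Capn15* overlapped between the groups. The ratio of the group means of CPM was 3.81 for *Capn5* and 2.68 for *Capn1*. CPM is the count of a gene relative to the scaled total of its library, which compares a gene between uteri. *Capn5*, which was selected on this difference, was past both thresholds of edgeR's quasi-likelihood test, an adjusted p under 0.05 and over 2-fold, and the other 8 were not. Of all tested genes, 0.157% passed, 0.126% as higher and 0.0301% as lower. In CPM, the groups were apart for 3 of the 9 genes, which were *Capn5* and *Capn1* (higher) and *Capn10* (lower), where the same held for 31.3% of all tested genes. The median log2 fold change of the 9 genes was 0.11, and that of all tested genes was −0.05. Because the RNA came from whole uteri, fewer cells of a type and less RNA per cell cannot be told apart.

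**Figure D1:**
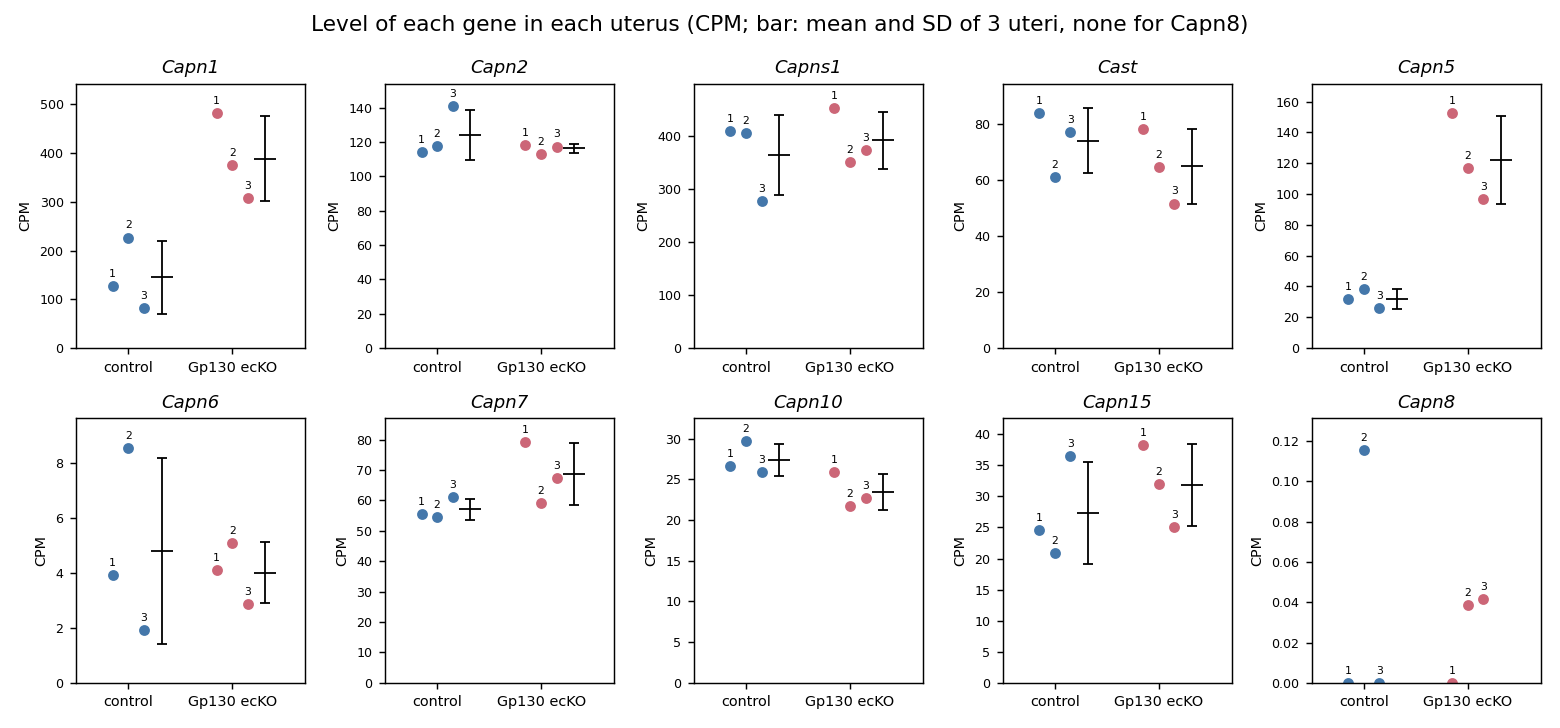
Level of the 10 genes in each uterus. The vertical axes give CPM from 0, points are single uteri with their replicate numbers (blue for control, red for *Gp130* ecKO), and bars give the mean and SD of 3 uteri, with none drawn for *Capn8*. All 3 *Gp130* ecKO uteri lay above all 3 controls for *Capn1* and *Capn5*, and the points of *Capn2*, *Capns1* and *Cast* overlapped.

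Total counts ranged from 13960748 to 25906443 per uterus, lowest in control 3. A multidimensional scaling was made from the genes that differed most between each pair of uteri. On its first dimension, controls 1 and 3 lay at 2.09 and 2.08, control 2 lay at 0.03 and the *Gp130* ecKO uteri lay from −1.47 to −1.32. *Il6st*, the gene of Gp130, had 631, 678 and 452 CPM in the control uteri against 388, 349.8 and 362 CPM in the ecKO uteri, so the highest ecKO uterus was below the lowest control. On the first dimension of the scaling control 2 stood between the groups, while its *Il6st* level was the highest of all uteri.

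*Capn1* encodes the catalytic subunit of calpain 1 (µ-calpain), 1 of the 2 classical enzymes. The gene (ENSMUSG00000024942) lies on the minus strand of chromosome 19 of GRCm39, from 6038566 to 6066148. Its level was 126, 227 and 81.6 CPM in the control uteri. In the ecKO uteri it was 481, 376 and 308 CPM. The controls spread widely (CV 51.3%), with control 2 the highest, and yet the groups did not overlap, since the lowest *Gp130* ecKO uterus was 1.36 times the highest control. The log2 fold change was 1.42 (standard error 0.38), and it was 1.93 without control 2. *Capn1* did not pass the thresholds with the quasi-likelihood test on all 6 uteri, and it did with DESeq2, with edgeR's exact test, with the likelihood ratio test and without control 2. Those settings called 9.29%, 7.54%, 7.93% and 5.23% of all genes tested in them, in that order.

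*Capn2* encodes the catalytic subunit of calpain 2 (m-calpain), the other classical enzyme, and lies on chromosome 1 from 182294819 to 182345339 (ENSMUSG00000026509, minus strand). It had 114, 118 and 141 CPM in the control uteri against 118, 113 and 117 CPM in the ecKO uteri. Only control 3 stood above the others, and the *Gp130* ecKO values lay close together, with a CV of 2.36%. Between groups this gave a log2 fold change of −0.09 (standard error 0.15).

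The classical pair thus had another make-up in the 2 groups. On the TPM scale, which divides counts by transcript length and so compares genes, *Capn1* made up 54.6%, 67.2% and 37.9% of the sum of *Capn1* and *Capn2* in the control uteri. The share was 81.1%, 78.1% and 73.7% in the ecKO uteri. In controls neither gene led throughout, with *Capn2* ahead in control 3, and in every *Gp130* ecKO uterus most of the classical catalytic RNA was *Capn1*.

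Promoters of *Capn1* and *Capn2* are shown because these genes of 1 enzyme pair differed in how far the groups lay apart, and that of *Cast* because it held the single match to a STAT motif. STAT3 is a factor that Gp130 activates. The sequences are RefSeq windows of 300 bases, from 250 bases before to 50 after the gene start, taken from a GRCm38.p6 table and placed on GRCm39 by a single exact match each, and the table held 15 windows for 9 of the 10 genes (not *Capn5*). They are written in the direction of the gene, and capitals mark matches on either strand to 4 motifs: TTCNNNGAA (STAT), the palindromic estrogen response element, TATAAA and GGGCGG (GC box). A *Capn1* window (chr19:6065806-6066105, minus strand), the *Capn2* window (chr1:182345126-182345425, minus strand) and a *Cast* window (chr13:74956830-74957129, minus strand) follow.
Capn1: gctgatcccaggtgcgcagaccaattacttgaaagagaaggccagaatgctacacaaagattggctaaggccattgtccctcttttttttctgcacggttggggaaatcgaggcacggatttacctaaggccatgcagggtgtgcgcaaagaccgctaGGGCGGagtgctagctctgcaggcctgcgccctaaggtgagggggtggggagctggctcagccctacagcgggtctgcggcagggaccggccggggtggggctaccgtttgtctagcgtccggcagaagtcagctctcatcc
Capn2: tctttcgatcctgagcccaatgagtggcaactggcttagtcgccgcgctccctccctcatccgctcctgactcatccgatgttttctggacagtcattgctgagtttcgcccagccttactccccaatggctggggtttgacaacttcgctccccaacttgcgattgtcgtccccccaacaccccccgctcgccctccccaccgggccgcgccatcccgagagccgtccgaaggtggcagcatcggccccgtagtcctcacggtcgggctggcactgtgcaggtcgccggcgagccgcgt
Cast: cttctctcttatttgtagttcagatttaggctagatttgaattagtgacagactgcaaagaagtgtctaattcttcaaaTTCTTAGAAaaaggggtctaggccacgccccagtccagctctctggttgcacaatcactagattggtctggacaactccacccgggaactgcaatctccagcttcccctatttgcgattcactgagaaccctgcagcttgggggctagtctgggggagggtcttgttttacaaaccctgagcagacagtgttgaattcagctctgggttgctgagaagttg
The *Capn1* window shown held 1 GC box and 15 CpG, and a second *Capn1* window (chr19:6065228-6065527) held 3 GC boxes and 14 CpG. The *Capn2* window held 27 CpG and none of the 4 motifs. The STAT match of *Cast* began at base 80 of its window, and 3 other *Cast* windows at other starts held none. Among all 15 windows of the 9 genes, 1 held the STAT motif, 6 held a GC box, and none held the estrogen response element or TATAAA. Among 32851 windows of the table, the shares were 8.3% for the STAT motif, 35.7% for the GC box, 0.07% for the estrogen response element and 13.6% for TATAAA. These matches describe letters in a window and not binding.

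*Capns1* encodes the small regulatory subunit, which pairs with the product of *Capn1* or of *Capn2* (ENSMUSG00000001794, chromosome 7, 29886361 to 29898304, minus strand). It was the most abundant of the 10 genes per length, with 417 ± 65 TPM (SD, n = 3) in control and 472 ± 75 TPM (SD, n = 3) in *Gp130* ecKO. Across uteri its level was 411, 407 and 278 CPM in the control uteri against 454, 351 and 374 CPM in the ecKO uteri. Control 3 was the lowest and the groups overlapped. The log2 fold change was 0.11 (standard error 0.22), and its sign turned without control 3 (−0.058) or without *Gp130* ecKO 1 (−0.0059).

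Set against the catalytic genes, the small subunit was less abundant in *Gp130* ecKO. The ratio of *Capns1* TPM to the summed TPM of *Capn1* and *Capn2* was 4.52, 3.10 and 3.39 in the control uteri against 1.98, 1.85 and 2.30 in the ecKO uteri. The groups did not overlap in this ratio, and in every uterus *Capns1* exceeded the catalytic sum. *Capns1* itself overlapped between the groups in CPM.

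*Cast* encodes calpastatin, the inhibitor of the classical calpains (ENSMUSG00000021585, chromosome 13, 74840486 to 74957023, minus strand). Its level was 84.0, 61.3 and 77.3 CPM in the control uteri against 78.4, 64.8 and 51.7 CPM in the ecKO uteri. The groups overlapped, with *Gp130* ecKO 3 the lowest of all uteri. The fit gave a log2 fold change of −0.19 (standard error 0.21). The ratio of *Capn1* and *Capn2* TPM to *Cast* TPM was 1.96, 5.31 and 2.26 in the control uteri. In the ecKO uteri it was 7.49, 6.30 and 7.66. The classical catalytic RNA exceeded that of its inhibitor in all 6 uteri, and by more in each *Gp130* ecKO uterus than in any control, where control 2 came closest.

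**Figure D2:**
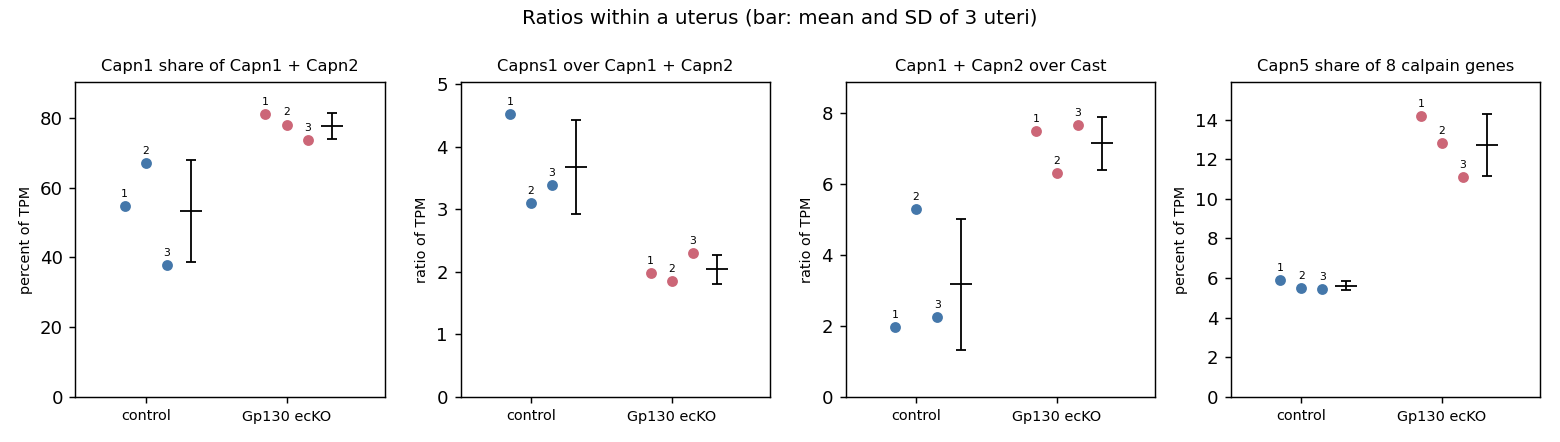
Ratios within each uterus. Vertical axes give a percent or a ratio of TPM from 0, points are uteri with their replicate numbers (blue for control, red for *Gp130* ecKO), and bars give the mean and SD of 3 uteri. The *Capn1* share of *Capn1* and *Capn2* was 53.2% in control and 77.7% in *Gp130* ecKO on average, and the groups were apart in all 4 panels. Each of these ratios contains *Capn1* or *Capn5*, which were apart themselves in CPM. The ratio of *Capn5* to *Capn1*, not drawn, overlapped (0.164, 0.115 and 0.236 in the control uteri against 0.252, 0.231 and 0.217 in the ecKO uteri).

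*Capn5* encodes calpain 5, a non-classical calpain related to TRA-3, a sex-determination protease of the nematode, and mutated in an inherited inflammatory eye disease in humans. The gene (ENSMUSG00000035547) lies on the minus strand of chromosome 7 from 97770766 to 97827906. It had 31.7, 38.6 and 25.7 CPM in the control uteri. In the ecKO uteri it had 153, 117 and 96.7 CPM. Every *Gp130* ecKO uterus was far above every control, the lowest of them 2.50 times the highest control, while the values within each group spread with a CV of 20.2% in control and 23.2% in *Gp130* ecKO. The group means were 32.03 ± 6.46 CPM (SD, n = 3) and 122 ± 28 CPM (SD, n = 3). The log2 fold change was 1.93 (standard error 0.24). It rests on 386 to 3376 counts per uterus, so that counting error was at most 5.09% and smaller than the spread between uteri.

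Over 16 alternative fits of these same uteri, which are no independent evidence, the log2 fold change of *Capn5* ranged from 1.74 to 2.12. Its place past the thresholds was lost in 7 of the 16 fits, in the legacy form of the quasi-likelihood test, with the replicate block, and whenever 1 uterus other than control 2 was left out.

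Per length, *Capn5* moved from a minor to a middle rank among the 10 genes. Its TPM was 8.84, 11.5 and 9.04 in the control uteri against 57.0, 45.0 and 28.1 in the ecKO uteri. Its rank was 7 in control, with a range that overlapped that of *Capn15*. In *Gp130* ecKO its rank was 4, and its range overlapped those of *Capn2*, *Cast* and *Capn7*. As a share of the summed TPM of the 8 calpain genes, *Capn5* was 5.90%, 5.49% and 5.46% in the control uteri, a narrow range. The share was 14.2%, 12.8% and 11.1% in the ecKO uteri. The sum of the 8 genes itself was 149.7, 209 and 165.5 TPM in the control uteri against 401, 351 and 253 TPM in the ecKO uteri, and *Capn1* with *Capn5* made up 41.8%, 53.3% and 28.6% of it in controls and 70.6%, 68.3% and 62.1% in *Gp130* ecKO.

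The TPM of *Capn5* differed between the groups by more than its CPM did (ratio of means 4.43 and 3.81). TPM also holds the transcript length that RSEM weights by isoform, which was 4498, 4438 and 4019 bases in the control uteri against 3795, 3995 and 4331 bases in the ecKO uteri. The lengths of the groups overlapped. *Capn1*, with mean lengths of 3005 bases in control and 3012 in *Gp130* ecKO, also had a higher ratio in TPM (2.87) than in CPM (2.68). Among the tested members only *Cast* went the other way (0.81 in TPM and 0.876 in CPM). How much of the gap for *Capn5* lies in length or in the scaling of the libraries was not tested. The deposited tables list 5 *Capn5* transcripts, of 382 to 4498 bases in GENCODE M39, and how RSEM divided reads among them was not tested. No stretch of 75 bases, the read length, in a *Capn5* transcript occurred in a transcript of another gene on either strand. *Omp*, an olfactory gene that lies within *Capn5* on the same strand, had at most 0.788 CPM.

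**Figure D3:**
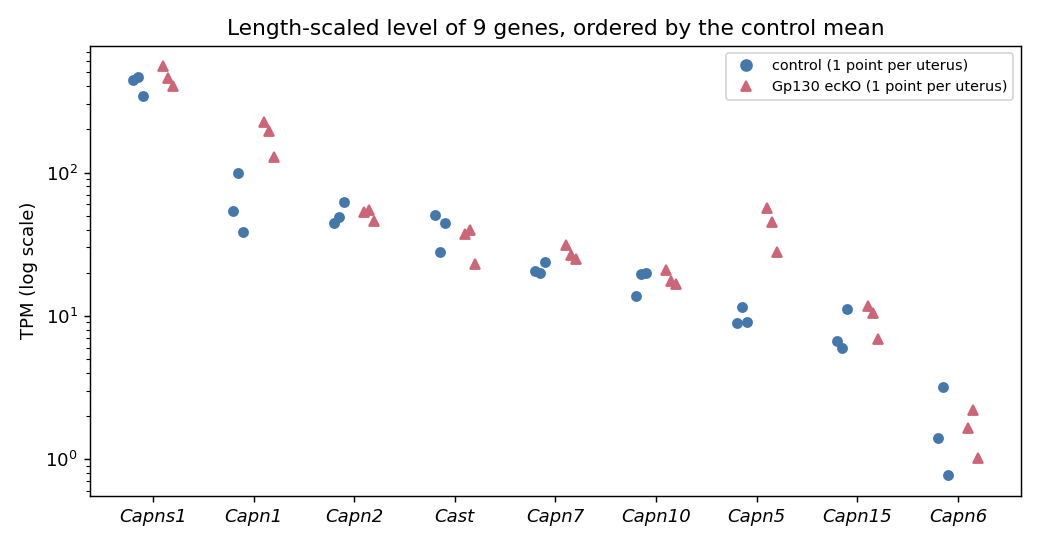
Level per transcript length of the 9 genes other than *Capn8*, in order of the control mean. The vertical axis is TPM on a log scale, circles are control uteri and triangles *Gp130* ecKO uteri. *Capn5* averaged 9.79 TPM in control, next to *Capn15*, and 43.4 TPM in *Gp130* ecKO, between the ranges of *Cast* and *Capn2*, which its own range overlapped.

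The order of the 10 genes per length was otherwise much alike in both groups. In control the mean TPM was 417 for *Capns1*, 64.0 for *Capn1*, 52.1 for *Capn2*, 41.0 for *Cast*, 21.5 for *Capn7*, 17.7 for *Capn10*, 9.79 for *Capn5*, 7.93 for *Capn15*, 1.78 for *Capn6* and 0.02 for *Capn8*. The ranges of *Capn1* and *Capn2*, of *Capn2* and *Cast*, and of *Capn5* and *Capn15* overlapped, so these neighbours did not differ beyond their spread. In *Gp130* ecKO the order was *Capns1* (472 TPM), *Capn1* (183 TPM), *Capn2* (51.1 TPM), *Capn5* (43.4 TPM), *Cast* (33.2 TPM), *Capn7* (27.5 TPM), *Capn10* (18.3 TPM), *Capn15* (9.67 TPM), *Capn6* (1.61 TPM) and *Capn8* (0.0133 TPM). Here *Capn1* stood clear of *Capn2*. *Capn2* overlapped *Capn5*, *Capn5* overlapped *Cast*, and *Cast* overlapped *Capn7*.

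*Capn6* encodes a calpain that lacks the catalytic cysteine and is known to bind microtubules (ENSMUSG00000067276, chromosome X, 142585227 to 142610467, minus strand). It had 3.92, 8.56 and 1.93 CPM in the control uteri against 4.11, 5.08 and 2.86 CPM in the ecKO uteri. The *Gp130* ecKO values lay inside the range of the controls. On the log2 scale the difference was −0.28 (standard error 0.54), and 0.45 without control 2, so its direction rested on that uterus.

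*Capn7* encodes a calpain of the PalB type, with domains that bind ESCRT-III proteins of membrane scission (ENSMUSG00000021893, chromosome 14, 31058544 to 31100290, plus strand). It had 55.6, 54.6 and 61.1 CPM in the control uteri against 79.3, 59.0 and 67.5 CPM in the ecKO uteri. *Gp130* ecKO 2 was below control 3 and the other *Gp130* ecKO uteri were above all controls. This amounts to a log2 fold change of 0.27 (standard error 0.17).

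*Capn10* encodes a non-classical calpain whose human gene was linked to type 2 diabetes (ENSMUSG00000026270, chromosome 1, 92862093 to 92881692, plus strand). It had 26.6, 29.7 and 25.9 CPM in the control uteri against 25.9, 21.7 and 22.8 CPM in the ecKO uteri. The groups met almost at 1 value, control 3 (25.94 CPM) being just above *Gp130* ecKO 1 (25.91 CPM). The log2 fold change was −0.22 (standard error 0.18), and on the TPM scale the ratio of means was 1.04. The length RSEM assigned to *Capn10* ranged from 1757 to 2466 bases between uteri. *Gpr35*, which overlaps *Capn10* on the same strand, had at most 2.93 CPM.

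*Capn15* encodes a calpain with zinc fingers, related to the small optic lobes protein of the fruit fly (ENSMUSG00000037326, chromosome 17, 26177332 to 26204786, minus strand). It had 24.6, 20.8 and 36.5 CPM in the control uteri against 38.3, 32.03 and 25.04 CPM in the ecKO uteri. The groups overlapped, with control 3 second only to *Gp130* ecKO 1. On the log2 scale the difference was 0.22 (standard error 0.27).

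*Capn8* encodes a calpain of gastric mucous cells (ENSMUSG00000038599, chromosome 1, 182392572 to 182459917, plus strand). It had 0, 3 and 0 counts in the control uteri against 0, 1 and 1 counts in the ecKO uteri. A count of 0 allows a level of up to 0.121 CPM in control 1, 0.20 CPM in control 3 and 0.136 CPM in *Gp130* ecKO 1, for counting error only. *Capn8* was therefore at or near the limit of detection in every uterus.

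**Figure D4:**
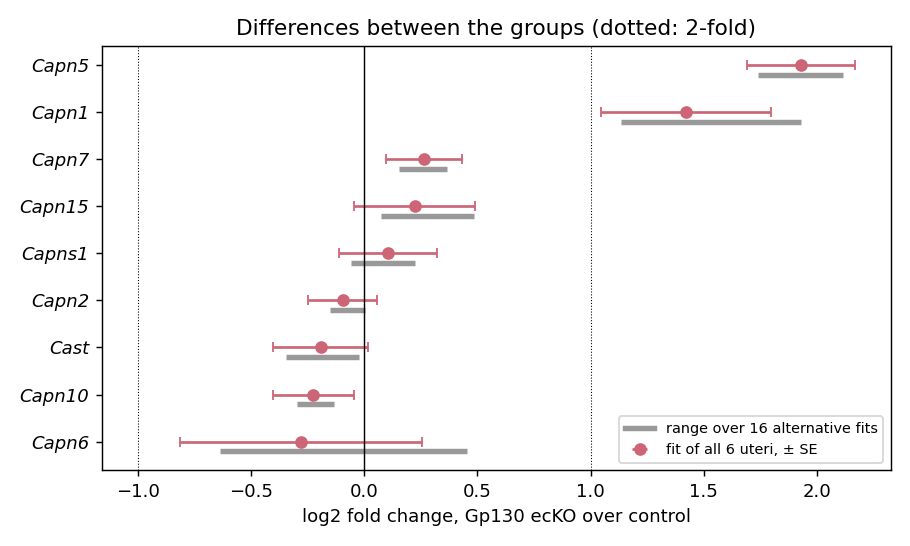
Log2 fold change of 9 genes between *Gp130* ecKO and control. The horizontal axis gives the log2 fold change, points and thin bars the fit of all 6 uteri with its standard error, grey bars the range over 16 alternative fits, and dotted lines 2-fold. *Capn5* (1.93) and *Capn1* (1.42) lay beyond the upper dotted line, and the other 7 lay between −0.28 and 0.27.

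*Capn1* and *Capn5* ordered the uteri alike. Within controls both were highest in control 2 and lowest in control 3, and within *Gp130* ecKO both were highest in *Gp130* ecKO 1 and lowest in *Gp130* ecKO 3. Over the 6 uteri, Pearson's r of log2(CPM + 0.5) between *Capn1* and *Capn5* was 0.95, which ranked 378th among 10259 genes with a mean of at least 10 CPM. The other 6 calpain system genes above that level had r from −0.60 (*Capn10*) to 0.71 (*Capn7*). The 6 points form 2 groups that differ in *Capn5*, so a gene that is clearly higher in *Gp130* ecKO has a high r. In all, 331 genes had r above 0.95.

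The 5 genes most like *Capn5* by this measure were *Gpalpp1* (r = 0.997), *Mfsd14b* (r = 0.996), *Xiap* (r = 0.995), *Etl4* (r = 0.994) and *Zbtb33* (r = 0.993). *Xiap* encodes an inhibitor of caspases, and *Zbtb33* encodes Kaiso, a transcription factor. Their log2 fold changes were 0.53 to 0.94, smaller than that of *Capn5*. *Xiap*, for example, had 73.7, 86.9 and 73.3 CPM in the control uteri against 151, 138 and 126 CPM in the ecKO uteri, which repeats the order of *Capn5*.

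The remaining calpain genes were at low levels, of which *Capn12* was the highest in mean CPM. *Capn12*, a calpain of the hair follicle, had 4.21, 1.89 and 1.27 CPM in the control uteri against 0.949, 1.19 and 1.49 CPM in the ecKO uteri, and *Capn3*, the muscle calpain, had 0.0667 to 0.930 CPM. Neither passed the thresholds (log2 fold change −1.04 and −0.12, adjusted p = 0.250 and 0.921 in edgeR's quasi-likelihood test). *Capn9*, *Capn11*, *Capn13* and *Capns2* did not pass the low-count filter. *Capn11*, a calpain of the testis, had 40 counts in control 3, 10 in control 2, 7 in *Gp130* ecKO 1 and 0 in the other uteri. The highest counts were 1 for *Capn9*, 11 for *Capn13* and 3 for *Capns2*.

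Genes tied to the calpain system by structure, partnership, cleavage or calcium supply were taken from lists, and none of them passed the thresholds in edgeR's quasi-likelihood test. Among 4 relatives of the small subunit with the same calcium-binding fold, 0 passed and 2 had an unadjusted p below 0.05, a share of 25% among all tested genes. *Gca*, the gene of grancalcin, had 7.44, 11.4 and 5.73 CPM in the control uteri against 20.8, 19.3 and 14.3 CPM in the ecKO uteri without overlap (log2 fold change 1.14, standard error 0.32, adjusted p = 0.105 in edgeR's quasi-likelihood test). *Pef1*, the gene of peflin, had 67.0, 70.1 and 50.6 CPM and 102, 77.1 and 92.9 CPM in the same order (log2 fold change 0.54, standard error 0.19, adjusted p = 0.150 in edgeR's quasi-likelihood test). In this list, 1 gene of 4 passed with edgeR's exact test (7.54% of all tested genes), its likelihood ratio test (7.93%), DESeq2 (9.29%) and without control 2 (5.23%). Of 3 ESCRT genes that partner calpain 7, 0 passed in any of these tests, 0 had an unadjusted p below 0.05, and their groups overlapped.

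Of 17 genes whose proteins are known calpain substrates, 0 passed, 4 had an unadjusted p below 0.05 (25% of all tested genes did) and 11 had a positive log2 fold change, with a median of 0.20. The groups did not overlap for 6 genes that were higher and 3 that were lower in *Gp130* ecKO, where 15.7% and 15.6% of all tested genes did so. *Ezr*, the gene of ezrin, which links actin to the membrane of microvilli, had 471, 528 and 343 CPM in the control uteri against 1353, 914 and 884 CPM in the ecKO uteri. The groups were apart (log2 fold change 1.23, standard error 0.27, adjusted p = 0.0810 in edgeR's quasi-likelihood test). *Vim*, the gene of vimentin, the intermediate filament of stromal cells, lay the other way, with 1041, 885 and 788 CPM in the control uteri against 299, 535 and 502 CPM in the ecKO uteri. These groups were apart too (log2 fold change −1.02, standard error 0.27, adjusted p = 0.101 in edgeR's quasi-likelihood test). With DESeq2 and with edgeR's exact test and likelihood ratio test, 2 genes of the 17 passed, 1 higher and 1 lower, where these tests called 9.29%, 7.54% and 7.93% of all genes.

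Of 15 genes of calcium supply and sensing, 0 passed in these tests, 3 had an unadjusted p below 0.05, against 25% of all tested genes, and 13 had a positive log2 fold change, with a median of 0.24. *Stim2*, a calcium sensor of the endoplasmic reticulum, was the only 1 of the 15 whose groups did not overlap, against 31.3% of all tested genes, with 45.7, 45.6 and 47.2 CPM in the control uteri against 58.1, 69.7 and 57.4 CPM in the ecKO uteri (log2 fold change 0.42, standard error 0.15, adjusted p = 0.159 in edgeR's quasi-likelihood test).

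The summed levels of some cell type markers also differed between the groups. None of the epithelial, stromal or endothelial genes passed the thresholds in edgeR's quasi-likelihood test. *Vim*, 1 of the stromal markers, is also among the substrates above, of which 1 lower gene passed with DESeq2 and edgeR's other 2 tests. *Cdh1* (epithelial) and *Des* (smooth muscle) are likewise both markers and substrates, and *Cdh1* was among the substrates that were higher without overlap. Of 6 epithelial markers (*Krt8*, *Krt18*, *Krt19*, *Epcam*, *Cdh1* and *Krt7*), 5 had a higher mean in *Gp130* ecKO. At an unadjusted p below 0.05 there were 4 of the 6 epithelial, 3 of the 5 stromal and 4 of the 4 endothelial markers, against 25% of all tested genes. The summed level of the epithelial markers was 1806 to 2709 CPM in control and 3948 to 5441 CPM in *Gp130* ecKO. All 5 stromal markers had a lower mean in *Gp130* ecKO, with sums of 3502 to 4514 CPM in control and 1935 to 2717 CPM in *Gp130* ecKO. Endothelial sums were 299.9 to 725 CPM and 168 to 302 CPM in the same order and overlapped, control 3 being just below *Gp130* ecKO 2. *Ovgp1*, a secreted glycoprotein typical of the oviduct, averaged 61.3 CPM in control and 787 CPM in *Gp130* ecKO and passed the thresholds. Sums for smooth muscle overlapped too (536 to 2592 CPM and 450 to 2738 CPM), and the 3 embryo markers had at most 0.407 CPM together. Every epithelial, stromal, endothelial and smooth muscle marker was detected. The part of tissue make-up in the calpain results was not tested.

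As a further description, chosen after the data were seen, *Capn5*, *Capn1*, *Capns1* and *Capn2* were each divided by the summed epithelial markers. *Capn5* then had 12.3, 14.3 and 14.3 CPM per 1000 CPM of the markers in the control uteri against 28.1, 29.6 and 22.7 in the ecKO uteri. The groups stayed apart, with a ratio of means of 1.97, where the ratio for CPM alone was 3.81. *Capn1* had 49.1, 83.7 and 45.2 CPM per 1000 CPM of the markers in the control uteri against 88.5, 95.2 and 72.4 in the ecKO uteri. For *Capn1* the groups overlapped on this scale, since control 2 lay above *Gp130* ecKO 3. Without control 2 they were apart, with a ratio of means of 1.81 in place of 1.44. On the same scale *Capns1* averaged 155 ± 4.8 (SD, n = 3) in control and 86.8 ± 2.9 (SD, n = 3) in *Gp130* ecKO, and *Capn2* averaged 55.3 ± 19.8 (SD, n = 3) and 26.02 ± 3.72 (SD, n = 3). These ratios depend on the markers chosen, since the markers themselves differed unequally between the groups. Against each marker alone, the ratio of means of *Capn5* ranged from 0.59 with *Krt19*, which itself was 4.57 times the control mean in *Gp130* ecKO, to 4.06 with *Epcam*, which was 0.876 times, and the groups overlapped with *Krt19* and *Krt7*. Without control 2 the range was 0.459 to 4.95, and the groups were apart with all 6 markers, lower in *Gp130* ecKO with *Krt19* and higher with the other 5. The ratio for *Capn1* ranged from 0.472 with *Krt19* to 2.83 with *Epcam*, and from 0.399 to 4.51 without control 2. The *Capn1* groups overlapped with *Krt8*, *Krt18* and *Krt7*. They were apart with *Krt19* (lower in *Gp130* ecKO) and with *Epcam* and *Cdh1* (higher). Without control 2 they overlapped with *Krt8* only, where the ratio of means was 1.25. Not all RNA of these genes need come from the epithelium, so the scale is not a level per epithelial cell.

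**Figure D5:**
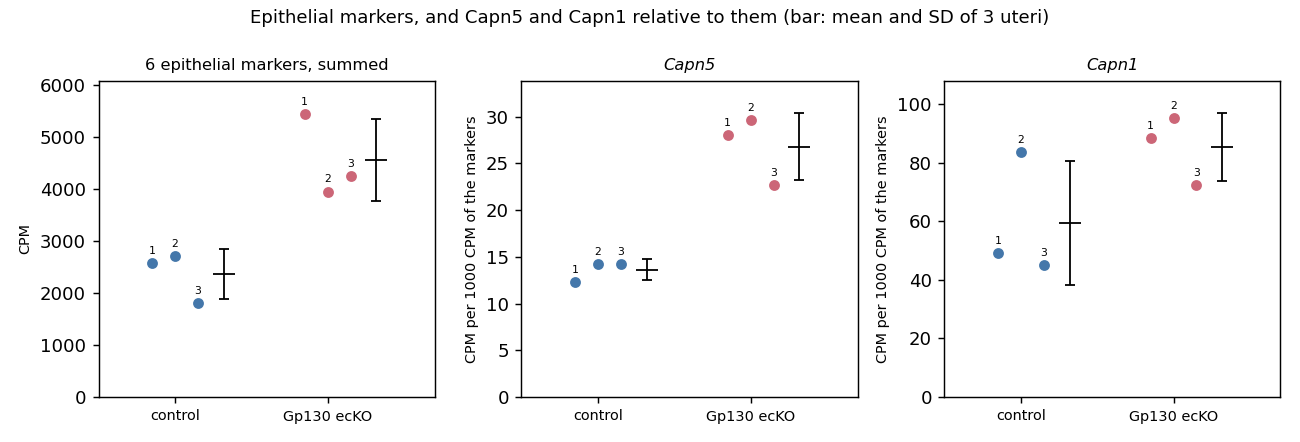
Epithelial markers and 2 calpain genes relative to them. Vertical axes give summed CPM of 6 markers (left) or CPM of the gene per 1000 CPM of the markers (middle and right) from 0, points are uteri with their replicate numbers, and bars give the mean and SD of 3 uteri. *Capn5* per summed markers averaged 13.6 in control and 26.8 in *Gp130* ecKO without overlap, *Capn1* overlapped through control 2, and both ratios depend on the markers summed.

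Some members overlap genes on the opposite strand. The libraries were strand-specific, whether strand was used in counting is not given in the sources used here, and a part of opposite-strand reads in the counts was not tested. Of the stretches of 75 bases in *Capn1*, 13.3% also occurred on the opposite strand in *Gm10814*, which had at most 2.03 CPM. For *Capn2* the share was 30.9% with *Gm37885*, which had at most 0.20 CPM. *Erap1*, a peptidase gene that overlaps *Cast* on the opposite strand, had 68.1 to 121 CPM, and 7.43% of the *Cast* stretches occurred on the opposite strand of other genes. *Sh3bp5*, opposite *Capn7*, had 9.68 to 43.9 CPM, and 5.16% of the *Capn7* stretches were shared with it. The other overlapping genes with counts (*Gm16938* at *Capn5*, *9430060I03Rik* at *Capn10*, *D630044L22Rik* and *1700022N22Rik* at *Capn15*, *Gm26810* at *Capns1* and *Gm6296* at *Cast*) had at most 0.497 CPM.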

How the data were processed

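RNA-seq of whole uteri covered 3 control and 3 *Gp130* ecKO females. Per the submitters' processing notes and the methods of the study, the authors trimmed strand-specific single reads with fastp 0.23.2, filtered out ribosomal RNA (SortMeRNA), aligned to GRCm39 (STAR 2.7.10a) and quantified genes (RSEM 1.3.3). The annotation version is not given in the sources used here. The deposited expected counts were not normalized, and RSEM divides reads that fit several genes. The deposited TPM and FPKM are the authors' values per transcript length and library size; TPM was used to compare genes and FPKM was not used. The deposited transcript lengths, a per-gene value in bases, are weighted by isoform. The authors' own edgeR 3.38.4 comparison was not used.

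Expected counts were rounded to whole numbers for edgeR 4.0.16 (R 4.3.3): filterByExpr, TMM scaling, glmQLFit without the legacy setting, glmQLFTest and Benjamini-Hochberg adjustment over 16605 genes, with genes called at an adjusted p under 0.05 and over 2-fold. Standard errors are the log2 fold change over the square root of F. The alternatives (DESeq2 1.42.0, other edgeR tests, scalings and filters, unrounded counts, the replicate block and each uterus left out) are given in the closing section. Symbols and coordinates came from GENCODE M39, which held 56017 of 56748 gene identifiers.

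The members and lists were chosen with earlier results of these data known. Named genes were all members, the other calpains, overlapping genes with counts, *Il6st*, the 5 genes with the highest correlation with *Capn5* (mean of at least 10 CPM, pseudocount 0.5), and from each list the called genes or up to 2 with the largest change among those without overlap and with a mean of at least 1 CPM. Marker lists for glands, macrophages, neutrophils, lymphocytes, mesothelium and ovary were also summed. Gland sums were 100.2 to 885 CPM in control and 136 to 6808 CPM in *Gp130* ecKO (136 and 197 without *Gp130* ecKO 1, where *Prss29* alone had 6546 CPM). In the same order, sums were 82.5 to 121 and 55.3 to 108 for macrophages, and 2.07 to 5.95 and 0.633 to 3.61 for neutrophils. They were 7.20 to 10.9 and 2.74 to 9.58 for lymphocytes, and 28.6 to 161 and 32.3 to 87.9 for mesothelium. Ovary sums were 7.04 to 23.0 and 3.61 to 6.06. In edgeR's quasi-likelihood test 0 of these genes passed. An unadjusted p below 0.05 was found for 2 of 3 tested neutrophil markers and the 1 tested ovary marker, against 25% of all tested genes. *S100a8* and *S100a9* were lower without overlap (log2 fold change −3.24 and −3.42), and *Ly6g* was higher with overlap (1.08). No 2 libraries of a group held the same counts (chi-square per gene 90.9 to 131). The labels number the uteri within a group and say no more of their origin, so p-values measure the spread between these uteri. Intervals and floors cover counting error only.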

Additional observations from a re-analysis of the deposited data

How the results depend on the processing

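The number of genes passing the thresholds was 26 of 16605 (21 higher and 5 lower). It was 7 with the legacy quasi-likelihood form (6 higher), 1252 with edgeR's exact test (622 higher, 630 lower), 1317 with its likelihood ratio test (651 higher, 666 lower), 1542 with DESeq2 (734 higher, 808 lower) and 105 without the low-count filter (74 higher). Leaving out 1 uterus gave 1 to 897 genes, 897 (585 higher) without control 2 and at most 6 without any other. Members passing numbered 1, against 0 with the legacy form, 2 (*Capn5* and *Capn1*) with the exact test, the likelihood ratio test and DESeq2, and 0 to 2 with 1 uterus left out (2 without control 2, 0 otherwise). With the replicate number as a block (replicate block), 6 genes and 0 members passed, and *Capn5* had a log2 fold change of 1.92 and missed the threshold. The correlation of deviations of same-numbered uteri was 0.10, 0.06 and −0.19, and that of other pairs ranged from −0.30 to 0.22. With so few uteri per group these values cannot decide whether the numbers pair the uteri. *Capn5* was 1.93 with the legacy form, also missing the adjusted p threshold, and 1.74 to 2.12 with 1 uterus left out, passing only without control 2. Its call was thus lost without any 1 of the other 5 uteri, in fits where at most 6 of all tested genes passed. In the list of small subunit relatives, 1 gene passed with the exact test, the likelihood ratio test and DESeq2, and 0 to 1 with 1 uterus left out; of the substrates, 2 passed with those tests. With 1 uterus left out the direction turned for *Capn2* (−0.12 to 0.0042, turned without control 3), *Capn6* (−0.64 to 0.45, without control 2) and *Capns1* (−0.058 to 0.22, turned without control 3, and −0.0059 without *Gp130* ecKO 1). *Capn1*, *Capn5*, *Capn7*, *Capn10*, *Capn15* and *Cast* kept their direction in 16 of 16 alternatives. Apart from the leave-one-out results, the cause of these differences was not tested. Other scalings moved the median log2 fold change of all genes from −0.05 to −0.03 (size factors) or −0.10 (totals only). With a pseudocount of 2 all 5 genes most like *Capn5* remained, and with a mean of at least 1 CPM 4 of the 5 did. The lowest counts were 29 for *Capn6* and 0 for *Capn8*, where the other members had at least 386. For *Capn6*, counting error at its lowest count was 18.6%, below its CV of 70.8% in control and 27.7% in *Gp130* ecKO.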
